A study of Mus musculus with 23 samples.

Results

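Transcripts of the insulin-like growth factor (IGF) system were examined in mouse testis: the 2 ligands Igf1 and Igf2, the 2 receptors Igf1r and Igf2r, and the 6 binding proteins Igfbp2 to Igfbp7. The genes were taken from the count table by symbol, as a family, with earlier results of these data known. They are 10 of the 28861 genes in the count table, and all 10 passed the filter on low counts, which kept 22873 genes. RNA came from whole testis of wild-type male mice of 3 inbred strains that received no other treatment per the labels. C57BL/6J is the strain of the reference genome, CAST/EiJ is a wild-derived strain, and NZO/HlLtJ, the New Zealand Obese strain, becomes obese and often diabetic. Feeding ran from 6 to 16 weeks of age with fiber-containing chow of either 10% fat, the control, or 44% fat with high sugar. There were 4 libraries for each strain and diet, except for CAST/EiJ on 10% fat, which had 3, so that 23 libraries formed 6 groups.

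IGF1 and IGF2 are small secreted hormones related to insulin. Both signal through the receptor tyrosine kinase IGF1R, while IGF2R, which also carries lysosomal enzymes, takes up IGF2 and leads it to degradation. Binding proteins hold the ligands outside cells, extend their life and control their access to the receptor, and proteases that cut binding proteins release them. In the testis, Leydig, Sertoli and peritubular myoid cells make ligands and binding proteins, and IGF signalling acts on Sertoli cell number and on steroid production. Igf2 and Igf2r are imprinted genes in the mouse.

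Levels are estimated counts per 1e+06 counts of the library (counts per M, CPM) after TMM scaling, a correction for differences in library composition. Library totals lay between 21.9 M and 78.7 M estimated counts (median 35.1 M). Spermatid markers summed to between 7600 and 11200 CPM over all libraries, a check of the labelled tissue. A gene is called changed at an adjusted p under 0.05 in the quasi-likelihood F test of edgeR, with Benjamini-Hochberg adjustment over the 22873 genes. In whole tissue, a lower level from fewer cells of a type and one from less RNA per cell cannot be told apart. The submitters' notes name GRCm38, the C57BL/6J reference, and how reads of the other strains map to it was not tested. The labels give each library its own sample number but do not say that the samples came from separate animals, so the p values measure the spread between these samples. Of the 23 libraries, 3 stood apart on principal components 3 and 4, which held 1.61% and 1.32% of the variance: C57BL/6J 10% fat replicate 4, NZO/HlLtJ 10% fat replicate 4 and NZO/HlLtJ 44% fat replicate 3. Another 2 libraries had the highest summed epididymis markers, CAST/EiJ 44% fat replicate 2 with 99.2 CPM and C57BL/6J 10% fat replicate 2 with 17.5 CPM, against 0.0234 to 5.7 CPM in the others.

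The 10 genes lie on 7 chromosomes of the GRCm38 build. Igfbp2 (chr1:72824503-72852474, plus strand) and Igfbp5 (chr1:72857932-72874884, minus strand) are neighbours with 5.46 kb between them. Igfbp3 (chr11:7206086-7213923, minus strand) and Igfbp4 (chr11:99041244-99054392, plus strand) share a chromosome but not a neighbourhood. Igf2 (chr7:142650766-142666816, minus strand) lies 72.6 kb from the imprinted noncoding gene H19. Igf1r lies on the same chromosome (chr7:67952827-68233668, plus strand), Igf1 on chromosome 10, Igf2r on chromosome 17, Igfbp6 on chromosome 15 and Igfbp7 on chromosome 5.

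The 250 bases before the annotated start are shown for the 3 genes with the largest strain differences, Igf2, Igfbp2 and Igfbp3, and for Igfbp4, whose strain order was another. All 10 genes matched RefSeq starts on GRCm38.p6, with 14 starts in all. For Igf2, start 4 of its 4 RefSeq starts is shown (chr7:142657497-142657746, minus strand), which lies in an intron of the gene. Igfbp2 is shown at its first start (chr1:72824230-72824479, plus strand), Igfbp3 at chr11:7213924-7214173 on the minus strand, and Igfbp4 at chr11:99040994-99041243 on the plus strand. Which start was used in these libraries was not measured. Capitals mark exact matches on either strand to 3 promoter motifs, and near matches are not marked. The motifs are the TATA box TATAAA, the CCAAT box (read as its reverse complement in the Igf2 window) and the GC box GGGCGG. The marked matches do not overlap.
Igf2: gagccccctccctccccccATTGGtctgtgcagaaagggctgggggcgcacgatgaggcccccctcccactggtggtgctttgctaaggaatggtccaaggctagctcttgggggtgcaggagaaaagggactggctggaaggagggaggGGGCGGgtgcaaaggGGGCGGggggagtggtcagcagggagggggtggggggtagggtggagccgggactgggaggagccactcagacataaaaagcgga
Igfbp2: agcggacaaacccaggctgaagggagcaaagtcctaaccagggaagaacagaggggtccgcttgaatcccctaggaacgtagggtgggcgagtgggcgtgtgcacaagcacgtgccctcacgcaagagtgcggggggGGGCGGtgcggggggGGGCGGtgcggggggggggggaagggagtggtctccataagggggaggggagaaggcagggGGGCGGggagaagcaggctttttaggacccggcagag
Igfbp3: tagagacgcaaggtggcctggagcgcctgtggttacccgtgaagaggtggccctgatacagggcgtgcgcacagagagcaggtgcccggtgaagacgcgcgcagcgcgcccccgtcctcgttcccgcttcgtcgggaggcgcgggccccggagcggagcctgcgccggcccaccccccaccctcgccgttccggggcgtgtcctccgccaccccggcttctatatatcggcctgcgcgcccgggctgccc
Igfbp4: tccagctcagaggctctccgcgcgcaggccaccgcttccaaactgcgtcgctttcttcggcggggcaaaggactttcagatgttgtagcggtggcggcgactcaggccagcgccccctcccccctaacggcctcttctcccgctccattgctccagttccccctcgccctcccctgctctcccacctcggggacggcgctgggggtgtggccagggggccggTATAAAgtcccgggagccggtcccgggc

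The Igfbp2 window shown held 3 copies of GGGCGG, the Igf2 window 2 with 1 CCAAT, and the Igfbp4 window a TATAAA that starts at -28 from its first transcribed base. The Igfbp3 window held no exact match to the 3 motifs. Of the Igf2 windows not shown, start 3 held 1 GGGCGG, and starts 1 and 2 held no match, nor did start 2 of Igfbp2. The Igfbp2 start shown, at 72824480, lies before the GENCODE start of the gene at 72824503. The 50 bases after it were therefore not wholly in a GENCODE transcript of the gene. Those after start 2 of Igfbp2, which lies within the gene, were. Among 32851 promoter windows of the same length, 32.7% held GGGCGG, 33.8% held CCAAT and 12.4% held TATAAA. The letters TTCNNNGAA, the form of a STAT5 site, were found in 7.02% of all windows and in 0 of the 14 windows of the IGF genes. The windows show the reference sequence of C57BL/6J. Sequence variants of the other strains were not analysed here.

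Strain, not diet, separated the IGF transcripts, as it separated most genes tested. In NZO/HlLtJ against C57BL/6J, 7 of the 10 genes were called, 6 higher and 1 lower, where 59.1% of all genes tested were called, 30.4% higher and 28.7% lower. In CAST/EiJ against C57BL/6J, 7 were called, 4 higher and 3 lower, where 66.8% of all genes were called, 32.7% higher and 34.1% lower. In NZO/HlLtJ against CAST/EiJ, all 10 were called, 7 higher and 3 lower, where 72.1% of all genes were called, 39.6% higher and 32.5% lower. The median size of the log2 fold changes was larger for the IGF genes, chosen with earlier results of these data known, than over all genes tested. It was 0.55 in NZO/HlLtJ against C57BL/6J, 0.54 in CAST/EiJ against C57BL/6J and 0.68 in NZO/HlLtJ against CAST/EiJ, against 0.27, 0.36 and 0.42 over all genes tested. The 3 comparisons share their libraries in pairs and are not independent of each other.

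**Figure D1:**
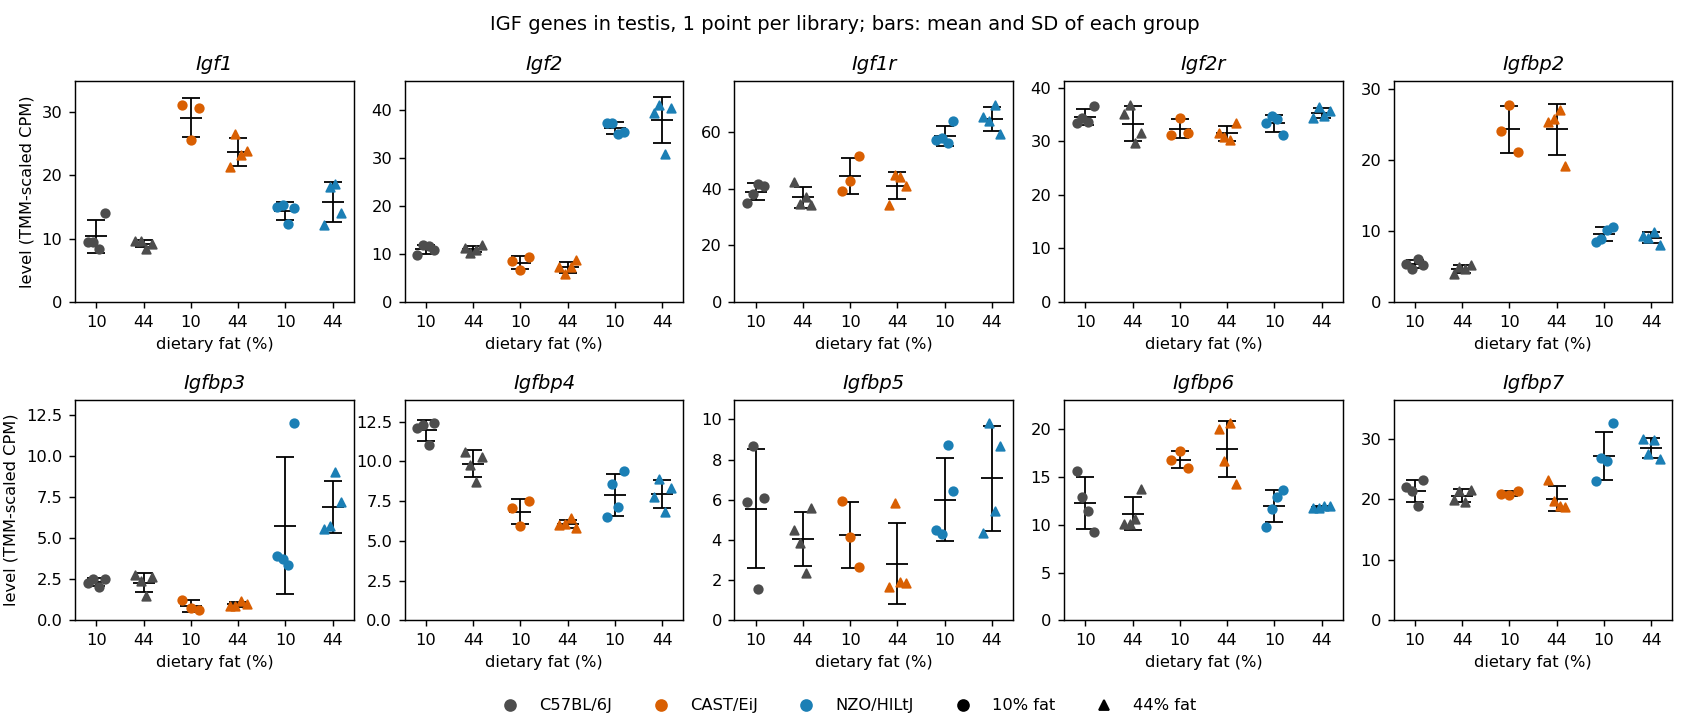
Level of each IGF gene in TMM-scaled CPM (vertical axes, from 0) in the 6 groups, by percent of fat in the diet (horizontal axes). Points are libraries, bars are the mean and SD of a group. NZO/HlLtJ libraries sit between 30.8 and 41.2 CPM for Igf2, above all others, and CAST/EiJ libraries between 19.1 and 27.8 CPM for Igfbp2, above all others.

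The ligands had different strain orders. Igf2, the growth factor best known from fetal tissues, was highest in NZO/HlLtJ, and Igf1, the ligand that growth hormone controls in many tissues, was highest in CAST/EiJ. Igf2 stood at 37.4, 37.3, 35.1 and 35.5 CPM in NZO/HlLtJ on 10% fat and at 39.4, 41.2, 30.8 and 40.5 CPM on 44% fat. It stood at 9.76, 11.8, 11.7 and 10.8 CPM in C57BL/6J on 10% fat and at 11.2, 10.2, 10.9 and 11.8 CPM on 44% fat. In CAST/EiJ it stood at 8.57, 6.7 and 9.32 CPM on 10% fat and at 7.32, 5.84, 7.27 and 8.65 CPM on 44% fat. No library of one strain overlapped with those of another, and the order was NZO/HlLtJ, C57BL/6J, CAST/EiJ. The share of all genes whose libraries separate the strains in this way was not counted.

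The Igf2 level was 37.1 ± 3.38 CPM in NZO/HlLtJ (SD, n = 8), while C57BL/6J had 11 ± 0.758 CPM (n = 8) and CAST/EiJ had 7.67 ± 1.23 CPM (n = 7). NZO/HlLtJ was 3.37-fold above C57BL/6J (log2 fold change 1.75, SE 0.0706, adjusted p = 2.34e-18) and 4.81-fold above CAST/EiJ (2.26, SE 0.0768, adjusted p = 1.33e-20). CAST/EiJ was below C57BL/6J with a log2 fold change of -0.51 (SE 0.0796, adjusted p = 1.94e-06). Sample numbers fall into 3 runs, which no label calls batches. Computed within each run, the difference of NZO/HlLtJ from C57BL/6J was between 1.64 and 1.88. The GENCODE annotation also lists a gene on the same strand over Igf2, Gm49394, which was not analysed here and whose reads could not be told from those of Igf2. An antisense gene, Igf2os, overlaps Igf2 by 7.12 kb, and its highest library reached 0.643 CPM. No source used here states whether the counting used the strand, so reads in the overlap cannot be assigned with certainty.

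Igf1 stood at 31.2, 25.6 and 30.6 CPM in CAST/EiJ on 10% fat and at 21.3, 26.5, 23.2 and 23.9 CPM on 44% fat. In NZO/HlLtJ it stood at 15, 15.3, 12.3 and 14.8 CPM on 10% fat and at 12.2, 18.2, 18.7 and 14.1 CPM on 44% fat. In C57BL/6J it stood at 9.49, 9.43, 8.38 and 14.1 CPM on 10% fat and at 9.65, 9.68, 8.41 and 9.17 CPM on 44% fat. Every CAST/EiJ library lay above every other library. C57BL/6J and NZO/HlLtJ overlapped through 1 library, C57BL/6J 10% fat replicate 4, which also had the lowest total.

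CAST/EiJ, with a mean of 26.1 ± 3.71 CPM (n = 7), was 2.71-fold above C57BL/6J with 9.79 ± 1.83 CPM (n = 8), a log2 fold change of 1.44 (SE 0.0935, adjusted p = 6.03e-14). NZO/HlLtJ, with 15.1 ± 2.41 CPM (n = 8), lay between the 2 strains, 0.63 above C57BL/6J on the log2 scale (SE 0.0926, adjusted p = 1.16e-06) and below CAST/EiJ with -0.80 (SE 0.0898, adjusted p = 5.19e-09). Liver is the main source of circulating IGF1. The 4 liver markers summed to 0.847 to 1.59 CPM in C57BL/6J, 0.347 to 0.658 CPM in CAST/EiJ and 1.6 to 3.07 CPM in NZO/HlLtJ. Of these markers, Alb reached at most 0.157 CPM in a library. Whether liver RNA had a part in the Igf1 levels was not tested.

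The balance of the ligand transcripts therefore differed within libraries. Per kilobase of exons, which allows genes to be compared, the ratio of Igf2 to Igf1 had a median of 2.09 in C57BL/6J (1.33 to 2.41), of 0.528 in CAST/EiJ (0.382 to 0.625) and of 4.27 in NZO/HlLtJ (2.84 to 5.58). The ranges of the 3 strains did not overlap. With the longest coding transcript as length, the medians were 1.81, 0.455 and 3.68 in the same order of strains.

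**Figure D2:**
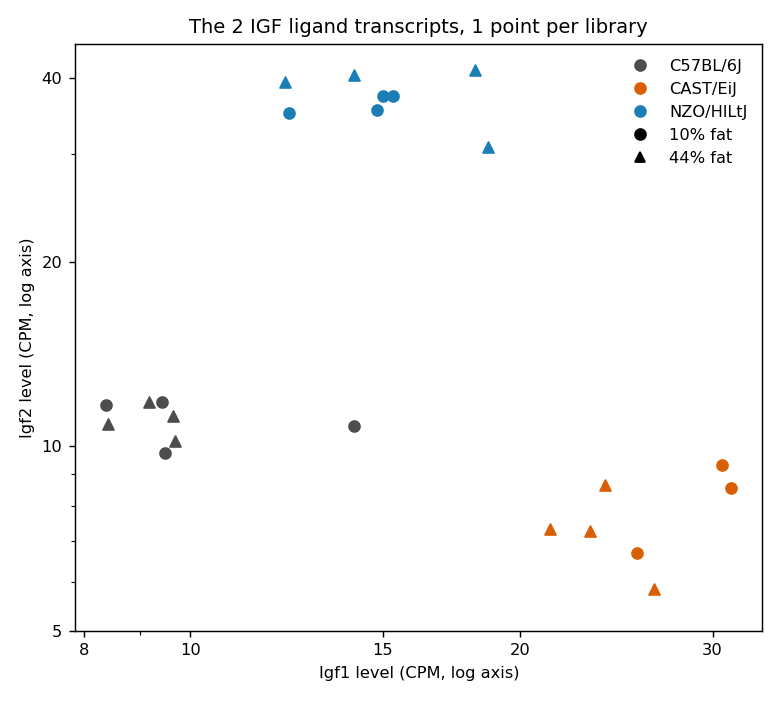
Igf1 (horizontal, log axis) against Igf2 (vertical, log axis) in CPM, 1 point per library, with colour for strain and shape for diet. NZO/HlLtJ libraries lie above 30 CPM of Igf2, and CAST/EiJ libraries lie above 20 CPM of Igf1 and below 10 CPM of Igf2.

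Of the receptors, Igf1r differed between strains and Igf2r hardly did. Igf1r encodes the signalling receptor of both ligands. Its level in NZO/HlLtJ lay between 56.2 and 69.7 CPM with a median of 61.6, above every library of C57BL/6J (34.4 to 42.3, median 37.7) and of CAST/EiJ (34.3 to 51.4, median 42.6). NZO/HlLtJ was 1.62-fold above C57BL/6J (log2 fold change 0.70, SE 0.0602, adjusted p = 6.79e-11) and 1.44-fold above CAST/EiJ (0.53, SE 0.0624, adjusted p = 1.47e-08). The difference of CAST/EiJ from C57BL/6J was small, 0.17 (SE 0.0631, adjusted p = 0.0204), with overlapping libraries. It lost its call on either diet alone (10% fat: 0.19, adjusted p = 0.0815, and 44% fat: 0.14, adjusted p = 0.152), without C57BL/6J 10% fat replicate 1 (0.14, adjusted p = 0.0517), without CAST/EiJ 10% fat replicate 3 (0.11, adjusted p = 0.126) and without the 2 libraries highest in epididymis markers (0.14, adjusted p = 0.0737). Within the runs of sample numbers it lay between -0.07 and 0.27.

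Igf2r, the scavenging receptor of IGF2, stood at 33.9 ± 2.44 CPM in C57BL/6J (n = 8), 31.8 ± 1.46 CPM in CAST/EiJ (n = 7) and 34.3 ± 1.57 CPM in NZO/HlLtJ (n = 8). The libraries of all 3 strains overlapped, between 29.6 and 36.8 CPM. NZO/HlLtJ against C57BL/6J gave a log2 fold change of 0.02 with a 95% interval from -0.07 to 0.10, and an adjusted p of 0.748. NZO/HlLtJ against CAST/EiJ gave 0.10 (SE 0.0441, adjusted p = 0.0362), a call that DESeq2 (0.07, adjusted p = 0.128), limma (0.06, adjusted p = 0.132) and another scaling (0.07, adjusted p = 0.13) did not make. It was also lost on 10% fat alone (0.04, adjusted p = 0.573), without the 2 libraries highest in epididymis markers (0.10, adjusted p = 0.0703) and on leaving out any 1 of 8 libraries, at adjusted p values of 0.0554 to 0.0943: CAST/EiJ 10% fat replicates 1 and 3, CAST/EiJ 44% fat replicates 2 and 3, NZO/HlLtJ 10% fat replicates 2 and 3, and NZO/HlLtJ 44% fat replicates 2 and 4. In CAST/EiJ against C57BL/6J the value was -0.09 (adjusted p = 0.0857), and it was called without CAST/EiJ 10% fat replicate 2 (-0.11, adjusted p = 0.0461) or C57BL/6J 44% fat replicate 3 (-0.11, adjusted p = 0.0212). The noncoding gene Airn overlaps Igf2r by 28.4 kb on the other strand, with at most 0.783 CPM in a library.

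**Figure D3:**
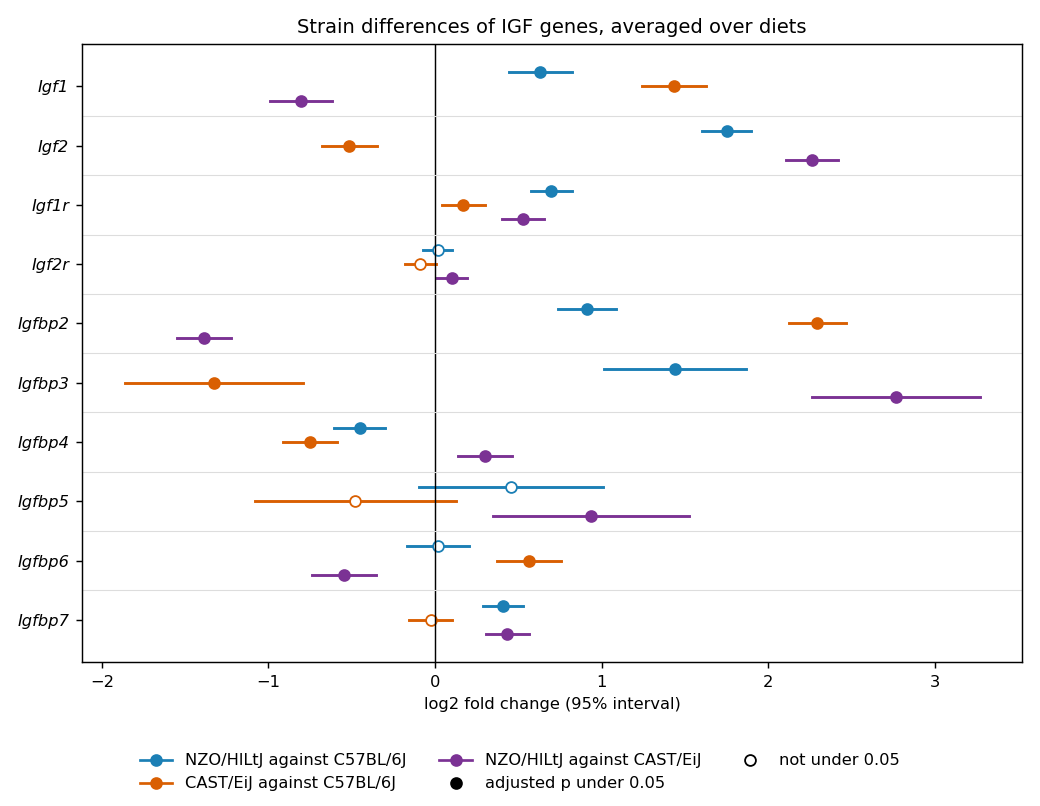
Log2 fold change (horizontal axis) of each IGF gene between strains, averaged over diets, with 95% intervals. Filled points have an adjusted p under 0.05 and open points do not. Igf2r lies close to 0 in all 3 comparisons, and Igfbp3 in NZO/HlLtJ against CAST/EiJ lies farthest from it, at 2.77.

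Among the binding proteins, the libraries of Igfbp2 and Igfbp3 separated all 3 strains, in different orders, though how common this is over all genes was not counted. Igfbp2, a binding protein with a preference for IGF2, stood at 24.1, 27.8 and 21.2 CPM in CAST/EiJ on 10% fat and at 25.3, 25.8, 27.1 and 19.1 CPM on 44% fat. In NZO/HlLtJ it stood at 8.44, 8.93, 10.2 and 10.6 CPM on 10% fat and at 9.35, 9.06, 9.8 and 8.05 CPM on 44% fat. In C57BL/6J it stood at 5.28, 4.63, 6.02 and 5.19 CPM on 10% fat and at 3.92, 4.91, 4.6 and 5.22 CPM on 44% fat. No libraries of different strains overlapped. CAST/EiJ was 4.91-fold above C57BL/6J (log2 fold change 2.29, SE 0.084, adjusted p = 7.94e-20), and NZO/HlLtJ was 1.88-fold above it (0.91, SE 0.0848, adjusted p = 3.29e-10). NZO/HlLtJ was below CAST/EiJ, at -1.39 (SE 0.0784, adjusted p = 2.22e-15). Igf1 and Igfbp2 thus had the same strain order, CAST/EiJ, NZO/HlLtJ, C57BL/6J.

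Igfbp3 encodes the main carrier of IGFs in serum. It stood at 3.92, 3.74, 3.4 and 12 CPM in NZO/HlLtJ on 10% fat and at 5.59, 5.77, 9 and 7.22 CPM on 44% fat. In C57BL/6J its range was 1.47 to 2.74 CPM (median 2.45), and in CAST/EiJ 0.62 to 1.26 CPM (median 0.905), from 23 to 66 counts per library. No libraries of different strains overlapped, in the order NZO/HlLtJ, C57BL/6J, CAST/EiJ, which was also that of Igf2. The fold was 6.81 between NZO/HlLtJ and CAST/EiJ (log2 fold change 2.77, SE 0.245, adjusted p = 4.72e-11). NZO/HlLtJ was 2.72-fold above C57BL/6J (1.44, SE 0.208, adjusted p = 9.11e-07), and CAST/EiJ was below it at -1.33 (SE 0.262, adjusted p = 6.25e-05). NZO/HlLtJ 10% fat replicate 4, with 12 CPM, is one of the libraries that stood apart. The other NZO/HlLtJ libraries, from 3.4 CPM, also lay above every C57BL/6J library.

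Igfbp4, an inhibitory binding protein that the protease PAPP-A cuts, was the member with its highest level in C57BL/6J. It stood at 12.1, 12.3, 11 and 12.4 CPM there on 10% fat and at 10.6, 9.8, 8.7 and 10.3 CPM on 44% fat. The range was 5.78 to 7.52 CPM in CAST/EiJ, below every C57BL/6J library, and 6.49 to 9.37 CPM in NZO/HlLtJ, which overlapped with both. CAST/EiJ fell below C57BL/6J by 0.75 on the log2 scale (SE 0.0787, adjusted p = 1.69e-09) and NZO/HlLtJ by 0.45 (SE 0.074, adjusted p = 6.46e-06). NZO/HlLtJ was above CAST/EiJ by 0.30 (SE 0.0791, adjusted p = 0.00137), a difference that was not called on 10% fat alone (0.20, adjusted p = 0.134).

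Igfbp5, which binds to extracellular matrix, varied widely within groups. It stood at 5.91, 8.68, 1.56 and 6.11 CPM in C57BL/6J on 10% fat, at 4.52, 3.83, 2.36 and 5.57 CPM on 44% fat, and between 4.31 and 9.81 CPM in NZO/HlLtJ. In CAST/EiJ it stood at 5.93, 4.17 and 2.64 CPM on 10% fat and at 1.66, 5.84, 1.89 and 1.86 CPM on 44% fat. All strains overlapped. NZO/HlLtJ was above CAST/EiJ by 0.94 on the log2 scale (SE 0.288, adjusted p = 0.00499), and this was not called on 10% fat alone (0.51, adjusted p = 0.301).

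The other Igfbp5 comparisons depended on which libraries were included. CAST/EiJ against C57BL/6J gave -0.48 (SE 0.295, adjusted p = 0.155). It was called without CAST/EiJ 44% fat replicate 2 (-0.79, adjusted p = 0.0128), without C57BL/6J 10% fat replicate 3 (-0.64, adjusted p = 0.0346) and without the 2 libraries highest in epididymis markers (-0.64, adjusted p = 0.0418). NZO/HlLtJ against C57BL/6J gave 0.46 (SE 0.269, adjusted p = 0.148), and 0.61 with an adjusted p of 0.0277 without those 2. Both of them had the highest Igfbp5 or the next highest of their strain, 8.68 and 5.84 CPM. Over the alternatives the value ran from -0.79 to -0.17 in CAST/EiJ against C57BL/6J and from 0.11 to 0.80 in NZO/HlLtJ against C57BL/6J.

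Igfbp6, which prefers IGF2, was highest in CAST/EiJ, with 14.3 to 20.6 CPM (median 16.8) against 9.19 to 15.6 CPM (median 11) in C57BL/6J and 9.77 to 13.6 CPM (median 11.8) in NZO/HlLtJ. CAST/EiJ was 1.48-fold above C57BL/6J (log2 fold change 0.56, SE 0.0933, adjusted p = 5.38e-06). NZO/HlLtJ against C57BL/6J gave 0.02, with a 95% interval from -0.17 to 0.21. Igfbp7, a member with low affinity for IGFs that is abundant in vessel walls, was highest in NZO/HlLtJ, with 23 to 32.6 CPM (median 27.2) against 18.9 to 23.2 CPM (median 21.4) in C57BL/6J and 18.8 to 23.2 CPM (median 20.7) in CAST/EiJ. NZO/HlLtJ was 1.33-fold above C57BL/6J (0.41, SE 0.0596, adjusted p = 1.09e-06) and 1.35-fold above CAST/EiJ (0.43, SE 0.0619, adjusted p = 4.27e-07). CAST/EiJ against C57BL/6J gave -0.03, with a 95% interval from -0.15 to 0.10. Igfbp1 was at the edge of detection, with at most 4 counts and 0.118 CPM in a library, and was not tested.

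Compared per kilobase of exons, Igfbp7 and Igfbp6 had the highest mean levels of the 10 genes in each strain, while with the longest coding transcript as length Igfbp2 stood first in CAST/EiJ with 18.6 CPM per kb. Igfbp7 reached 17.4 ± 1.17 CPM per kb for C57BL/6J, 17 ± 1.28 for CAST/EiJ and 23 ± 2.42 for NZO/HlLtJ. Igfbp6 reached 10.5 ± 1.96, 15.7 ± 2.01 and 10.7 ± 1 in the same order of strains. The third place went to a different gene in each strain: Igf2r in C57BL/6J with 3.64 ± 0.262 CPM per kb, Igfbp2 in CAST/EiJ with 13.2 ± 1.71 and Igf2 in NZO/HlLtJ with 6.49 ± 0.590. The libraries of Igf2r and Igfbp2 in C57BL/6J, of Igfbp2, Igfbp6 and Igfbp7 in CAST/EiJ, and of Igf2 and Igfbp2 in NZO/HlLtJ overlapped, so these places are not firm.  On the exon scale the lowest places were held by Igfbp3 in C57BL/6J (0.742 CPM per kb) and CAST/EiJ (0.302) and by Igfbp5 in NZO/HlLtJ (1.09).

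The make-up of the binding protein transcripts followed. Of the summed Igfbp2 to Igfbp7 level per kilobase, Igfbp2 took 27.3% ± 1.95 in CAST/EiJ (n = 7), 11.6% ± 0.876 in NZO/HlLtJ (n = 8) and 7.81% ± 1.04 in C57BL/6J (n = 8). Every CAST/EiJ library, at 25.1% or more, lay above the others, whose highest was 12.9%. Igfbp7 took 35.3% ± 2.76 in CAST/EiJ, against 50.4% ± 3.19 in C57BL/6J and 52.8% ± 1.58 in NZO/HlLtJ. The summed level itself was 48.1 ± 4 CPM per kb in CAST/EiJ, 43.7 ± 4.54 in NZO/HlLtJ and 34.6 ± 3.02 in C57BL/6J, with overlapping libraries in NZO/HlLtJ and each of the other strains.

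**Figure D4:**
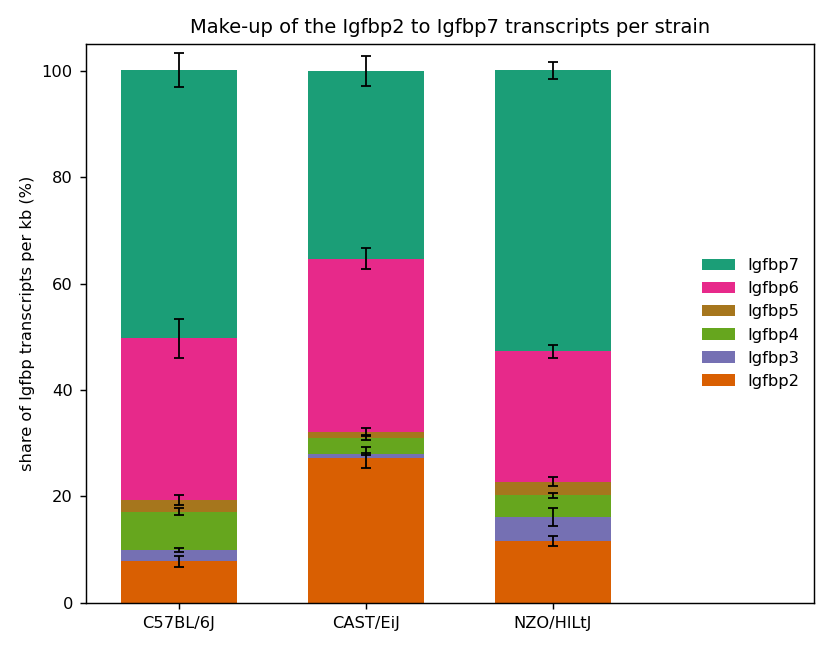
Mean share of each gene in the summed Igfbp2 to Igfbp7 level per kilobase of exons (vertical axis, percent) in the 3 strains, over both diets. Error bars are the SD over libraries of the share that ends there. Igfbp2 makes up 27.3% in CAST/EiJ, against 7.81% in C57BL/6J and 11.6% in NZO/HlLtJ.

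Cell type markers differed between strains as well, and their part in the IGF differences was not tested. In NZO/HlLtJ against C57BL/6J, 6 of 8 Leydig markers were called higher and 1 lower, and their sum lay between 1120 and 1620 CPM, against 559 to 820 CPM in C57BL/6J and 512 to 696 CPM in CAST/EiJ. In the same comparison 8 of 9 Sertoli markers, 7 of 8 endothelial markers, 6 of 7 interstitial fibroblast markers and 5 of 6 spermatogonia markers were higher, beside 30.4% of all genes. The fibroblast markers summed to between 217 and 306 CPM in NZO/HlLtJ, 113 to 203 CPM in C57BL/6J and 114 to 170 CPM in CAST/EiJ. The endothelial markers summed to between 35.4 and 44.5 CPM in NZO/HlLtJ, 29.2 to 36.6 CPM in C57BL/6J and 28.1 to 32.7 CPM in CAST/EiJ. In CAST/EiJ against C57BL/6J all 7 peritubular myoid markers were lower, beside 34.1% of all genes, with sums of 213 to 246 against 373 to 409 CPM, and 3 of 6 adipose markers were higher, with sums of 17.9 to 34.9 against 10.2 to 17.9 CPM. Of the markers of these cell types, the adipose marker Cfd alone was at 0 in a library, in NZO/HlLtJ. In NZO/HlLtJ against C57BL/6J all 6 spermatid markers were lower, beside 28.7% of all genes, with a median log2 fold change of -0.28. Of 7 peritubular myoid markers 4 were higher and 1 lower there, and of 7 macrophage markers 4 were higher. Of 6 spermatocyte markers 1 was higher and 2 lower. In CAST/EiJ against C57BL/6J, 5 of 7 interstitial fibroblast markers were lower and 4 of 6 spermatogonia markers higher, beside 34.1% and 32.7% of all genes.

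Diet changed none of the 10 genes by the test. In 44% against 10% fat, 0 IGF genes were called in C57BL/6J, where 0.00874% of all genes were called, 0 in CAST/EiJ, where 0% were, and 0 in NZO/HlLtJ, where 0.00437% were. By DESeq2 and by limma 0 IGF genes were called too. At an unadjusted p under 0.05 there was 1 IGF gene in C57BL/6J, where 2.93% of all genes had one, 1 in CAST/EiJ, where 4.11% did, and 0 in NZO/HlLtJ, where 6.8% did. In C57BL/6J this was Igfbp4: all 4 libraries on 44% fat, between 8.7 and 10.6 CPM, lay below all 4 on 10% fat, between 11 and 12.4 CPM. How common such a separation of the diets is over all genes was not counted. The log2 fold change of Igfbp4 was -0.28 (95% interval -0.49 to -0.07, adjusted p = 1 in edgeR). In CAST/EiJ it was Igf1, with 23.7 ± 2.13 CPM on 44% fat (n = 4) against 29.1 ± 3.08 CPM on 10% fat (n = 3), a log2 fold change of -0.30 (95% interval -0.56 to -0.04, adjusted p = 1 in edgeR) with overlapping libraries.

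The intervals show what size of diet difference these libraries leave possible. For Igf2r the 95% interval reached from -0.18 to 0.07 for C57BL/6J, from -0.17 to 0.10 for CAST/EiJ and from -0.04 to 0.20 for NZO/HlLtJ. For Igf2 it reached from -0.21 to 0.22, from -0.42 to 0.06 and from -0.12 to 0.25 in the same order of strains. For Igfbp5 it was wide, from -1.26 to 0.35, from -1.51 to 0.29 and from -0.52 to 0.99. In CAST/EiJ its value moved from -0.61 to -1.24 (adjusted p = 0.796) without 44% fat replicate 2, the library highest in epididymis markers. Igfbp3 in NZO/HlLtJ also turned on 1 library: its value was 0.25 (95% interval -0.30 to 0.80, adjusted p = 0.882) and 0.90 (adjusted p = 0.0781) without 10% fat replicate 4. Of the NZO/HlLtJ libraries, run 2 of the sample numbers held only 44% fat and run 3 only 10% fat. Diet and run therefore overlap in part in that strain.

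**Figure D5:**
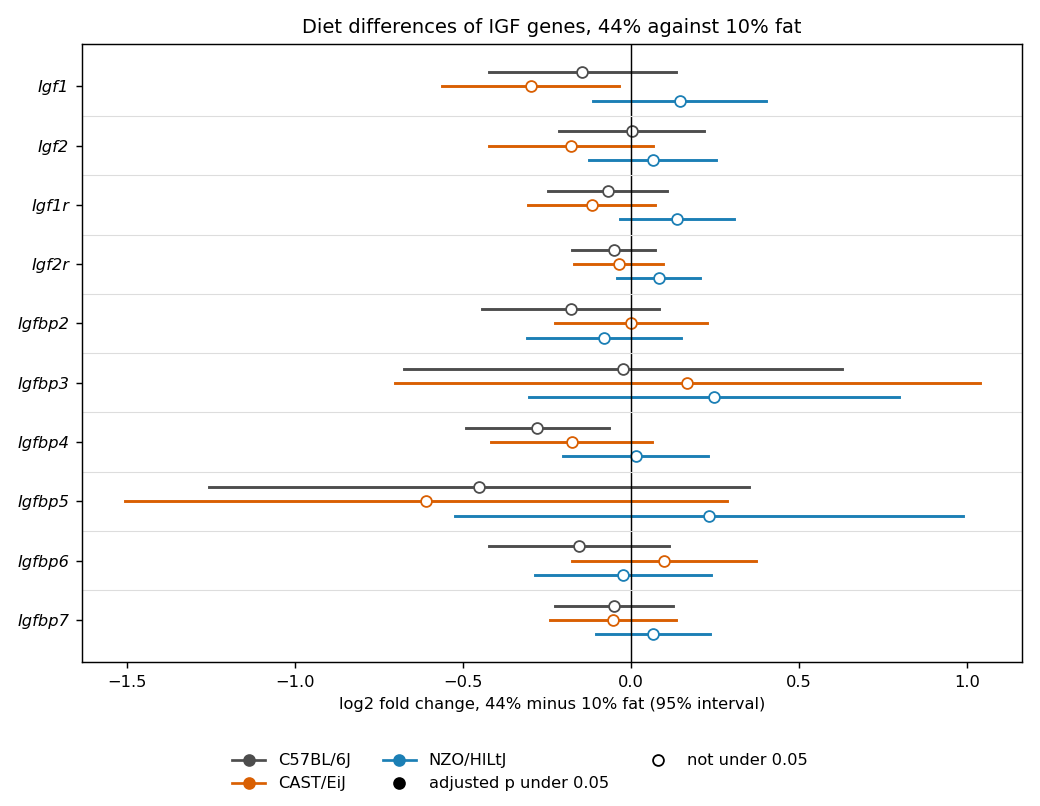
Log2 fold change of each IGF gene on 44% against 10% fat (horizontal axis) within each strain, with 95% intervals. All points are open, since no adjusted p was under 0.05, and the intervals of Igfbp3 and Igfbp5 are the widest.

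Averaged over strains, 0 IGF genes were called (0% of all genes), with Igfbp4 alone at an unadjusted p under 0.05, as were 3.92% of all genes (-0.15, adjusted p = 1). Whether the diet difference depended on strain was tested directly. It differed among the 3 strains for 0 IGF genes, as for 0% of all genes tested, and the adjusted p of Igf1 was 0.943. Between pairs of strains, 0 IGF genes were called by edgeR, DESeq2 or limma, again with 0% of all genes by edgeR. At an unadjusted p under 0.05 there were 2 IGF genes between NZO/HlLtJ and CAST/EiJ, where 7.45% of all genes had one. There were 0 between NZO/HlLtJ and C57BL/6J, with 4.05% of all genes, and 0 between CAST/EiJ and C57BL/6J, with 4.02%. The diet difference of Igf1 was 0.44 higher in NZO/HlLtJ than in CAST/EiJ (log2 scale, SE 0.18, adjusted p = 0.665), and that of Igf1r 0.25 higher (SE 0.124, adjusted p = 0.671).

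Of 10 genes listed for the binding and release of IGFs, which include inhibitors of release, 8 were tested. In CAST/EiJ against C57BL/6J 5 were lower and 2 higher, beside 34.1% and 32.7% of all genes. In NZO/HlLtJ against C57BL/6J 3 were higher and 0 lower, beside 30.4% and 28.7% of all genes. In NZO/HlLtJ against CAST/EiJ 4 were higher and 0 lower, beside 39.6% and 32.5% of all genes. Pappa, the protease of IGFBP4, was lowest in CAST/EiJ, where it averaged 11.5 ± 1.01 CPM, while C57BL/6J had 20 ± 1.98 CPM and NZO/HlLtJ had 20.7 ± 0.906 CPM. Its log2 fold change in CAST/EiJ against C57BL/6J was -0.80 (adjusted p = 3.06e-12). Stc1, a stanniocalcin related to the PAPP-A inhibitor STC2, stood at 0.462 ± 0.216 CPM in CAST/EiJ, 2.88 ± 0.335 CPM in C57BL/6J and 4.04 ± 0.763 CPM in NZO/HlLtJ. Igfals, the third part of the serum IGF complex, was lower in CAST/EiJ at 0.633 ± 0.123 against 1.17 ± 0.153 CPM in C57BL/6J (-0.88, adjusted p = 2.76e-05). Htra1 and Adam12, proteases that can cut binding proteins, were higher in both other strains than in C57BL/6J, with Adam12 at 6.68 ± 0.589 CPM in CAST/EiJ and 6.06 ± 0.418 CPM in NZO/HlLtJ against 3.08 ± 0.450 CPM. Kazald1, an IGF-binding protein relative, was lowest in CAST/EiJ at 0.589 ± 0.151 CPM, and Pappa2, a relative of Pappa, was lower there than in C57BL/6J (-0.55, adjusted p = 0.0277). Stc2 was not called between any strains, at means of 1.15 to 1.4 CPM.

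Of the 8 genes of the growth hormone axis, 4 were higher and 3 lower in CAST/EiJ against C57BL/6J, where 66.8% of all genes were called, and 4 higher and 1 lower in NZO/HlLtJ against C57BL/6J, where 59.1% were. Socs2, a feedback inhibitor that growth hormone induces, averaged 12.2 ± 0.918 CPM in CAST/EiJ, while C57BL/6J had 4.46 ± 0.467 CPM and NZO/HlLtJ had 4.59 ± 0.362 CPM. The log2 fold change of CAST/EiJ from C57BL/6J was 1.45 (adjusted p = 2.4e-16), with no overlap. The receptor gene Ghr was not called, with strain means between 3 and 3.46 CPM. Stat5b, a transducer of growth hormone signals, was highest in NZO/HlLtJ at 8.35 ± 0.751 CPM, against 4.45 ± 0.369 CPM in C57BL/6J (0.91, adjusted p = 1.4e-12), as was Jak2, the kinase of the growth hormone receptor, at 17.7 ± 1.89 CPM against 10.8 ± 1.01 CPM. Stat5a was lowest in CAST/EiJ at 3.3 ± 0.554 CPM, and Cish, another feedback inhibitor, was highest in C57BL/6J at 3.67 ± 0.551 CPM.

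Of 21 receptors and adaptors next to IGF1R, 12 were higher and 3 lower in NZO/HlLtJ against C57BL/6J, and 10 higher and 5 lower in CAST/EiJ against C57BL/6J. Over all genes, 59.1% and 66.8% were called in these comparisons. Insrr, an insulin receptor relative that binds neither insulin nor IGFs and senses alkaline pH, stood at 17.2 to 24.3 CPM in CAST/EiJ but at 0 to 0.348 CPM in C57BL/6J and 0.0296 to 0.169 CPM in NZO/HlLtJ (adjusted p = 6.63e-23 in CAST/EiJ against C57BL/6J). The insulin receptor gene Insr was lower in CAST/EiJ, at 30.9 ± 2.27 against 38.6 ± 1.5 CPM (-0.32, adjusted p = 5.37e-06). Grb14, an adaptor that dampens insulin receptor signals, was highest in NZO/HlLtJ at 11.2 ± 1.2 CPM, against 4.14 ± 0.649 CPM in C57BL/6J and 6.25 ± 0.732 CPM in CAST/EiJ. Irs1, a docking protein of the IGF1 and insulin receptors, was also higher in NZO/HlLtJ, at 6.77 ± 1.08 against 3.22 ± 0.711 CPM (1.08, adjusted p = 1.24e-07). Its relative Irs4 was lowest there, at 2.55 ± 0.345 CPM, and Pik3r1, the regulatory subunit of PI3 kinase, was lowest in C57BL/6J at 7.91 ± 0.836 CPM.

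Of the 9 genes listed around the imprinted Igf2 and Igf2r loci, 5 were tested. H19, the noncoding neighbour of Igf2, stood at 2 ± 0.229 CPM in NZO/HlLtJ, 1.39 ± 0.340 CPM in C57BL/6J and 1.05 ± 0.222 CPM in CAST/EiJ, the order of Igf2. It was called in all 3 comparisons, at 0.54 (adjusted p = 0.000649) in NZO/HlLtJ and -0.40 (adjusted p = 0.0149) in CAST/EiJ, each against C57BL/6J. Mas1 and Slc22a3, neighbours of Igf2r, were called in all 3 as well, with Mas1 lowest in NZO/HlLtJ at 29.8 ± 2.25 CPM and Slc22a3 highest in CAST/EiJ at 4.60 ± 0.797 CPM. Between 59.1% and 72.1% of all genes were called in these comparisons. All 3 genes of the IGF2 mRNA-binding proteins, which bind Igf2 and other transcripts, were lower in CAST/EiJ than in C57BL/6J, beside 34.1% of all genes. Igf2bp3 was the most abundant at 113 ± 3.57 against 153 ± 4.85 CPM, and Igf2bp2 stood at 1.13 ± 0.15 against 1.92 ± 0.199 CPM. Igf2bp1 stood at 7 ± 0.341 CPM in CAST/EiJ, 11 ± 0.783 CPM in C57BL/6J and 15.8 ± 1.26 CPM in NZO/HlLtJ.

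The genes most like each member were found by Pearson's r of log2 CPM over the 23 libraries, which strain differences govern, and again after each group's mean was taken off. Both are descriptions over libraries that share depth and cell makeup. The genes named were picked for the highest r among a great many compared with each member. What r the best of so many unrelated genes would reach by chance was not tested. The values, above all those within groups, therefore do not by themselves show a link between 2 genes. Over all libraries Igf2 was most like Ap1g1 (r = 0.989), Igf1 most like Depdc1a (0.953), Igf1r most like Stard4 (0.964) and Igfbp2 most like Phgdh (0.983). Igfbp3 was most like Ezh1 (0.969) and Sparc (0.968), and Igfbp5 most like the collagen genes Col3a1 (0.839) and Col1a1 (0.79). Within groups, the closest genes were others: Desi2 for Igf2 (0.755), Ahnak for Igf1 (0.855), Zkscan1 for Igf1r (0.863), Ece2 for Igfbp2 (0.797), Hdac6 for Igfbp3 (0.854) and Gas1 for Igfbp5 (0.813). For Igfbp6 the within-group likeness was high, with Ndufs8 (0.942), Bub3 (0.919) and the ferritin gene Fth1 (0.90), and Fth1 was also the gene most like it over all libraries (0.932). Igf2r had the weakest likeness over all libraries, 0.755 with Pdzd2.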

How the data were processed

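RNA with poly(A) tails was sequenced per the labels' protocols (KAPA mRNA HyperPrep libraries, paired reads). The authors deposited estimated counts per gene, of which 23.1% are not whole, and log2 values after a variance-stabilising transformation. Each gene of the count table has an estimated count above 0 in 12 or more libraries. The submitters' processing notes name GRCm38 and DESeq2. No source used here names the aligner, counter or strand setting.

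Estimated counts were rounded and fitted as 6 group means over all 23 libraries with edgeR 4.0.16 (R 4.3.3), TMM scaling and filterByExpr. The code was tested on simulated data. Strain comparisons average both diets. Alternatives were DESeq2 1.42.0, limma 3.58.1 on the authors' log2 values, other scaling, filters, libraries and covariates. Leaving out the 3 libraries that stood apart and the longest-transcript length were chosen after seeing the data. CPM per kb uses the union of exons in GENCODE M21.

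Members, gene lists and markers were chosen with earlier results of these data known. Named genes were the 10 members, the genes most like them (up to 3 each, mean at least 1 CPM), per list and comparison up to 3 called genes with the largest change, and Igfals, Igfbp1, Pappa, Pappa2, Stc2, H19, Ghr, Insr and Insrr. Promoter windows come from RefSeq (GRCm38.p6).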

Additional observations from a re-analysis of the deposited data

Results flagged for a closer look

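In 50 pairs of gene and group with 4 libraries each, the highest or lowest library was checked against the others by Dixon's ratio of its gap to the range. In 4 pairs the ratio passed its 95% critical value, which chance alone passes in about 1 in 20. Igfbp3 stood at 12 CPM in NZO/HlLtJ 10% fat replicate 4, while the other 3 libraries of that group lay between 3.4 and 3.92 CPM. Igfbp5 stood at 5.84 CPM in CAST/EiJ 44% fat replicate 2, against 1.66 to 1.89 CPM, in the library with 99.2 CPM of summed epididymis markers. Igfbp6 stood at 13.7 CPM in C57BL/6J 44% fat replicate 4, against 10.1 to 10.6 CPM. Igfbp4 stood at 11 CPM in C57BL/6J 10% fat replicate 3, against 12.1 to 12.4 CPM, still above all libraries of that strain on 44% fat. How common such a separation of the diets is over all genes was not counted. No diet difference of an IGF gene was found to differ between strains by the test of the difference.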

How the results depend on the processing

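No called IGF difference reversed under the alternatives fitted. Within the runs of sample numbers, which were compared without a fit, Igf1r in CAST/EiJ against C57BL/6J went from -0.07 to 0.27. Of 2630 single-gene values under alternatives, 2601 kept their side of the threshold, 23 lost a call and 6 gained one. The changes concern Igf1r, Igf2r, Igfbp4 and Igfbp5, and all fell in strain comparisons. Most of the 2630 values are of diet comparisons, which had no call to lose, so the total says little about the strain calls. Leaving out each library in turn, the number of IGF genes called stayed at 7 in NZO/HlLtJ against C57BL/6J, was 6 to 8 in CAST/EiJ against C57BL/6J and 9 to 10 in NZO/HlLtJ against CAST/EiJ, and was 0 in every diet comparison. With a fold limit of 1.2, 3 calls were lost: Igfbp4 in NZO/HlLtJ against CAST/EiJ (adjusted p = 0.237), Igf2r in the same comparison and Igf1r in CAST/EiJ against C57BL/6J (both adjusted p = 1). The deposited log2 values, tested with limma, are on a scale that compresses low counts: on it Igf2 in NZO/HlLtJ against C57BL/6J was 1.18, Igfbp2 in CAST/EiJ against C57BL/6J was 1.32 and Igfbp3 in NZO/HlLtJ against CAST/EiJ was 0.84, against 1.75, 2.29 and 2.77 in edgeR, all still called. Leaving out Igfbp3's high library, NZO/HlLtJ 10% fat replicate 4, kept all its strain calls. Scaling by DESeq2's size factors moved the median log2 fold change of all genes by -0.0296 at the most. Of 120 group levels under other scaling, 5 moved by over 1 SD. No paired analysis was possible because the labels carry no replicate numbers that link the groups. Depth limits Igfbp3 in CAST/EiJ most, with 23 to 66 counts per library.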
